A study of Mus musculus with 12 samples.

Results

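The 7 genes described here encode the intermediate filament proteins of sensory neurons and of the cells around them. They were taken by symbol from a fixed list: Nefl, Nefm, Nefh, Ina and Prph, which are typical of neurons, and Vim and Nes, which are typical of glia, fibroblasts, vascular cells and progenitors. All 7 were found among the 48795 gene IDs of the count table, and all 7 were among the 16831 genes that passed the filter on low counts. Reads per gene were counted in 12 RNA libraries from primary mouse cultures of dorsal root ganglia (DRG), where the somata of sensory neurons lie. The libraries form 3 groups of 4: DRG cells transfected with 50 nM of a mix of antisense oligonucleotides (ASOs) against GI-SINE RNA, DRG cells transfected with 50 nM of 1 control ASO, and DRG cells left untransfected. GI-SINE stands for growth-inducing B2-SINE, a class of short repeat-derived RNA. All mice were C57/Bl6 wild type. Each replicate number is 1 mouse whose ganglia gave 1 culture, which was divided among the 3 conditions. No group was transfected without an ASO, and the labels state neither the age of the mice nor the ASO sequences.

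Intermediate filaments are rope-like polymers that give cells mechanical strength. In large myelinated axons the light, medium and heavy neurofilament proteins (genes Nefl, Nefm and Nefh) assemble together, with the light chain as the core and the long tails of the other two projecting sideways, and their amount is known to set axon calibre. Alpha-internexin (Ina) and peripherin (Prph) join these polymers. Peripherin is known to be abundant in small unmyelinated sensory neurons, and the heavy neurofilament chain marks large ones. Vimentin (Vim) is the filament protein of mesenchymal and glial cells, and nestin (Nes) is a long partner of vimentin in progenitor, immature Schwann and vascular cells.

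All 7 proteins share a coiled-coil rod whose last turn is among the most conserved stretches of the family. The 30 bases that encode it are shown because they show how alike the 7 mRNAs are where they are most alike. Each run was read 5′ to 3′ from the longest open reading frame of the GENCODE M21 transcripts, at the codons for tyrosine, arginine, any residue, leucine, leucine and glutamate, which occurred once in each frame. Capitals mark the 15 bases that are identical in all 7.
Nefl: TACAGaAaaCTctTgGAaGgcGAagAgacc
Nefm: TACAGgAaaCTccTaGAgGggGAagAgacc
Nefh: TACAGaAagCTccTgGAaGgcGAagAgtgt
Ina: TACAGgAagCTccTgGAaGgtGAagAgacg
Prph: TACAGgAagCTacTgGAaGggGAggAgagc
Vim: TACAGgAagCTgcTgGAaGgcGAggAgagc
Nes: TACAGgActCTgcTgGAgGctGAgaActct
Prph and Vim were the most alike pair in this window, with 28 of 30 bases identical, and Nefl and Nes the least alike, with 17 of 30. Outside such short stretches the mRNAs diverge. The longest run shared on the same strand by annotated transcripts of any 2 of the 7 genes was 35 bases, between Nefm and Prph. The reads were 150 bases long at each end.

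Nefl (ENSMUSG00000022055; GRCm38 chromosome 14, 68083863 to 68089095) and Nefm (ENSMUSG00000022054; chromosome 14, 68082590 to 68124846) lie on opposite strands. By these coordinates the Nefl gene lies inside the annotated span of Nefm, and their annotated exons overlap over 1108 bases. Ina (ENSMUSG00000034336; chromosome 19, 47014698 to 47025327) has 456 exonic bases in common with Nt5c2 on the opposite strand. No source used here says whether counting used strand, so the values of Nefl, Nefm and Ina are uncertain by whatever reads came from those bases. Nefh (ENSMUSG00000020396; chromosome 11, 4938754 to 4948064), Prph (ENSMUSG00000023484; chromosome 15, 99055174 to 99058978), Vim (ENSMUSG00000026728; chromosome 2, 13573927 to 13582826) and Nes (ENSMUSG00000004891; chromosome 3, 87971078 to 87980451) overlap no other annotated gene.

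The 12 libraries held 14864622 to 22704267 counts. Along the leading principal component of log2 CPM (a gene's counts relative to the library total, scaled between libraries), which carried 57.3% of the variance, mix libraries spanned 64.4 to 72.3 in mice 1, 2 and 3 but mouse 4 was at 25.9, while the control ASO libraries lay at -15.3 to 0.3 and the untransfected ones at -58.2 to -44.7. Without mouse 4, the 6 calls made below for the mix against the control ASO kept their direction and stayed past the threshold. Neuronal markers were present in every group, as the DRG label asks: summed over 13 pan-neuronal genes, none of which was at 0 in any group, they came to 6416 to 8243 CPM with the mix, 5667 to 7302 CPM with the control ASO and 5197 to 7302 CPM in untransfected cultures. The libraries are bulk RNA, so fewer cells of a type and less RNA per cell cannot be told apart.

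Across the 3 groups the filament genes fell into contrasting patterns. Nefl, Nefm, Ina and Prph were highest with the GI-SINE ASO mix. Nefh ranges overlapped between all groups, with means of 339, 359 and 310 CPM in mix, control ASO and untransfected cultures. Vim and Nes were lowest with the mix, intermediate with the control ASO and highest without transfection. Together the 7 genes took 0.46 ± 0.0255% of all counts with the mix, 0.422 ± 0.0199% with the control ASO and 0.419 ± 0.0202% without transfection (SD, n = 4 each).

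**Figure D1:**
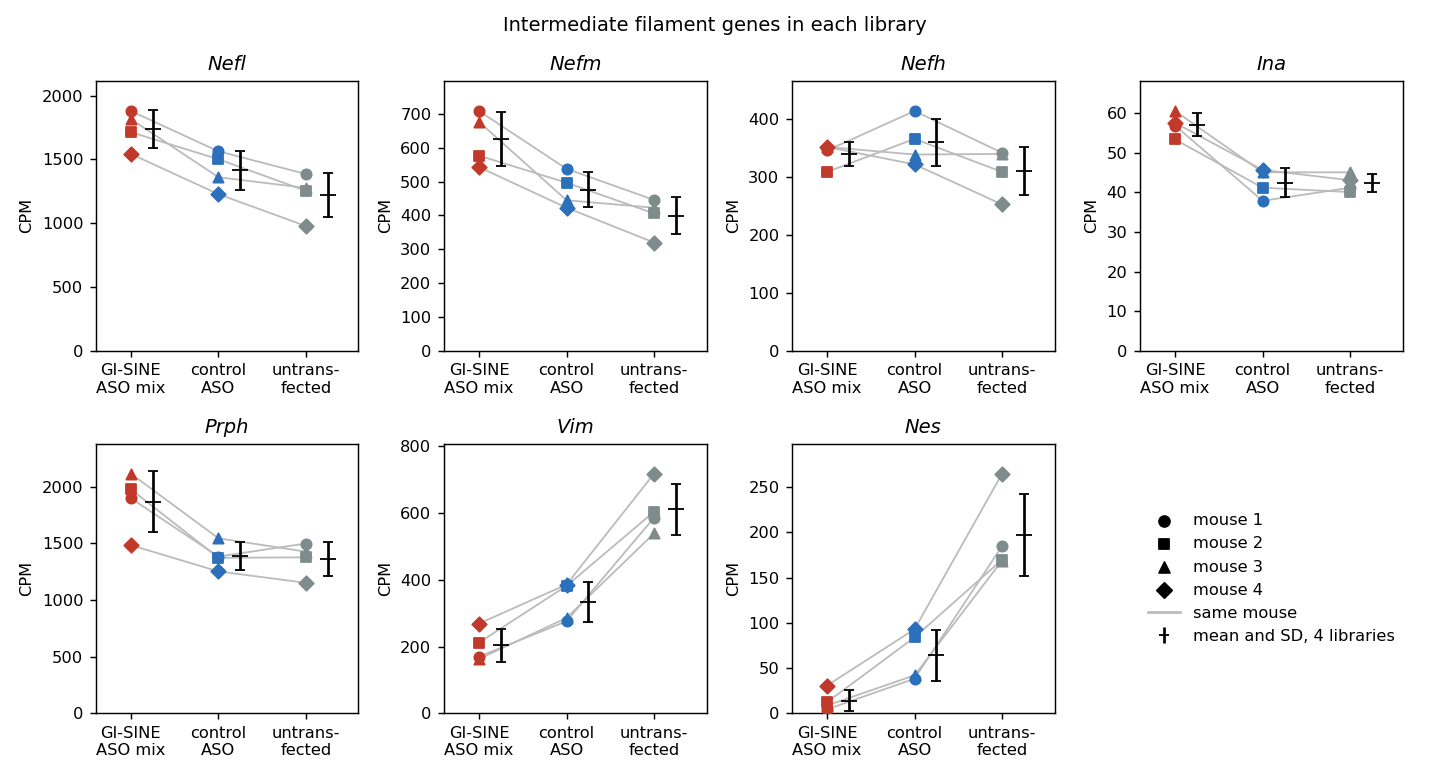
CPM of each gene (vertical axis, from 0) in the 3 groups (horizontal axis), with 1 marker shape per mouse, grey lines joining the libraries of a mouse, and the mean and SD of 4 libraries in black. Vim and Nes have separate ranges in all 3 groups, with the mix lowest, whereas the Nefh ranges overlap.

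The comparison of the mix with the control ASO addresses what went with the GI-SINE ASOs over and above ASO transfection as such. In it 4 of the 7 genes rose (Nefl, Nefm, Ina and Prph), 2 fell (Vim and Nes) and Nefh did not pass the test. Genes were tested with edgeR's quasi-likelihood test, with group and mouse in the model, and were called changed at a Benjamini-Hochberg adjusted p under 0.05. Changes were common in this comparison: 56.2% of all tested genes were called, 27.3% higher and 28.8% lower, which is the background for the 6 of 7 called here. The median log2 fold change was 0.30 over the 7 genes and -0.03 over all genes tested.

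Nefl, the core subunit without which neurofilaments do not form, had 1879, 1713, 1815 and 1542 CPM in the mix libraries of mice 1 to 4, against 1563, 1501, 1360 and 1227 CPM with the control ASO and 1385, 1253, 1276 and 977 CPM in untransfected cultures. The mix was highest in every mouse, but the ranges of mix and control ASO overlapped, because mouse 4 was low in all 3 conditions. With the mix Nefl rose by 0.30 ± 0.05 on the log2 scale relative to the control ASO (SE; adjusted p = 5.20e-05), a 1.23-fold difference. Scaled by library size only, the value was 0.18, still called.

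Nefm, the medium chain, had 709, 577, 677 and 543 CPM with the mix, against 538, 497, 445 and 423 CPM with the control ASO and 446, 406, 423 and 320 CPM without transfection. Every mix library lay above every control ASO library. It rose by 0.39 ± 0.06 with the mix (SE; adjusted p = 1.73e-05), or 1.31-fold, and in all 4 mice.

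Nefh, the heavy chain, had 345, 308, 351 and 351 CPM with the mix, against 413, 365, 338 and 321 CPM with the control ASO and 341, 308, 339 and 252 CPM without transfection. The mix was lower than the control ASO in mice 1 and 2 and higher in mice 3 and 4, and the groups overlapped. The difference was -0.08 ± 0.07 (SE; adjusted p = 0.388), and -0.20 when scaled by library size only. Without mouse 4 it passed the test as a fall of 0.14 on the log2 scale (adjusted p = 0.0307; adjusted p = 0.0307 to 0.894 over 14 alternatives).

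Ina, which encodes a neurofilament partner that appears early in developing neurons, was the scarcest of the neuronal members, with 56.9, 53.4, 60.6 and 57.6 CPM with the mix, against 37.9, 41.2, 45.1 and 45.7 CPM with the control ASO and 41.2, 40.1, 45.1 and 43.1 CPM without transfection. The mix libraries stood above all 8 others. Ina rose by 0.43 ± 0.06 with the mix (SE; adjusted p = 9.10e-06), or 1.35-fold.

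Prph, the filament gene of small sensory neurons, had 1898, 1977, 2115 and 1484 CPM with the mix, against 1384, 1373, 1545 and 1253 CPM with the control ASO and 1499, 1377, 1427 and 1152 CPM without transfection. The mix library of mouse 4 lay within the control ASO range, although it was above that mouse's own control ASO library. Prph rose by 0.42 ± 0.05 with the mix (SE; adjusted p = 2.93e-06), or 1.34-fold. With trends in length and GC content removed per library, the call stayed but the value was 0.20, and 0.13 against untransfected cultures.

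Vim had 170, 212, 163 and 269 CPM with the mix, against 276, 382, 286 and 386 CPM with the control ASO and 586, 604, 539 and 718 CPM in untransfected cultures. No range overlapped another, although the highest mix value (269 CPM, mouse 4) and the lowest control ASO value (276 CPM, mouse 1) were close. Vim fell by 0.72 on the log2 scale with the mix (SE 0.07; adjusted p = 1.92e-07), to 0.61 of the control ASO level. It was lower with the mix in every mouse, with differences of -0.85 to -0.52.

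Nes had 4.45, 12.4, 8.72 and 30.8 CPM with the mix, against 38.4, 84.1, 42.1 and 93.1 CPM with the control ASO and 185, 170, 169 and 265 CPM without transfection. Behind the mix values stood 89, 237, 172 and 506 reads, so the gene was still counted in each library. It fell by 2.30 on the log2 scale with the mix (SE 0.37; adjusted p = 0.00205), to 0.20 of the control ASO level, with differences of -3.08, -2.76, -2.26 and -1.59 in mice 1 to 4. Among all tested genes, this fold change stood at the 0.3rd percentile and that of Vim at the 7.6th, counted from the most negative. On the same scale Nefh stood at 45.8, Nefl at 74.1, Nefm at 79.5, Prph at 80.8 and Ina at 81.4. Of the 7 genes, 4 (Nefm, Ina, Vim and Nes) had ranges that did not overlap between mix and control ASO, beside 38.8% of all tested genes.

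Set against untransfected cultures, the control ASO shows what went with transfection, in which effects of the procedure and of the oligonucleotide cannot be told apart. The 3 neurofilament genes rose slightly, Vim and Nes fell, and Ina and Prph did not pass the test. The background was 24.2% of all tested genes called, 10.5% higher and 13.7% lower, beside 5 of the 7. Nefl rose by 0.21 ± 0.05 (adjusted p = 0.00344), Nefm by 0.26 ± 0.06 (adjusted p = 0.00274) and Nefh by 0.22 ± 0.07 (adjusted p = 0.0469), all on the log2 scale (SE, edgeR). The differences of Nefl and Nefm had the same sign in all 4 mice, but that of Nefh did so in 3, and in each of the 3 genes the groups overlapped. Prph differed by 0.03 ± 0.05 (adjusted p = 0.725) and Ina by 0.00 ± 0.06 (adjusted p = 0.998).

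These calls depended on the model. With mouse left out of the model, Nefl, Nefm and Nefh kept values of 0.21, 0.25 and 0.21 but lost their calls (adjusted p = 0.238, 0.157 and 0.178; adjusted p = 9.56e-05 to 0.238, 4.97e-05 to 0.157 and 0.00216 to 0.178 over 14 alternatives). Nefh also lost its call without mouse 1 (adjusted p = 0.156) or mouse 2 (adjusted p = 0.149). The count of all genes called was 2391 without mouse in the model and 2540 without mouse 3, against 4081.

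Vim fell by 0.89 on the log2 scale with the control ASO relative to untransfected cultures (SE 0.07; adjusted p = 1.42e-08), to 0.54 of their level, with differences of -1.09 to -0.66 in the 4 mice. Nes fell by 1.71 (SE 0.32; adjusted p = 0.0110), to 0.31 of the untransfected level. The ranges of both genes were separate between these groups, beside 23.4% of all tested genes. The Nes call was lost with mouse left out of the model (adjusted p = 0.0642) and without mouse 3 (adjusted p = 0.0930; adjusted p = 1.89e-05 to 0.0930 over 14 alternatives), at values of -1.62 in each case.

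The mix against untransfected cultures shares its libraries with both comparisons above and is given beside them. Here Nefl was higher by 0.51 ± 0.05, Nefm by 0.65 ± 0.06, Ina by 0.43 ± 0.06 and Prph by 0.45 ± 0.05 (SE; adjusted p = 6.44e-08, 2.57e-08, 5.11e-06 and 6.41e-07 from edgeR). Nefh was at 0.14 ± 0.07 (adjusted p = 0.124), with differences of 0.02, 0.00, 0.05 and 0.48 in mice 1 to 4, and at 0.01 without mouse 4. Vim fell by 1.61 on the log2 scale, to 0.33 of the untransfected level (adjusted p = 3.88e-12), and Nes fell by 4.01, to 0.06 of that level (adjusted p = 0.000106). Of all tested genes 61.2% were called, 30.1% higher and 31.1% lower. The ranges of Nefl, Nefm, Ina, Vim and Nes did not overlap, beside 46.0% of all tested genes.

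**Figure D2:**
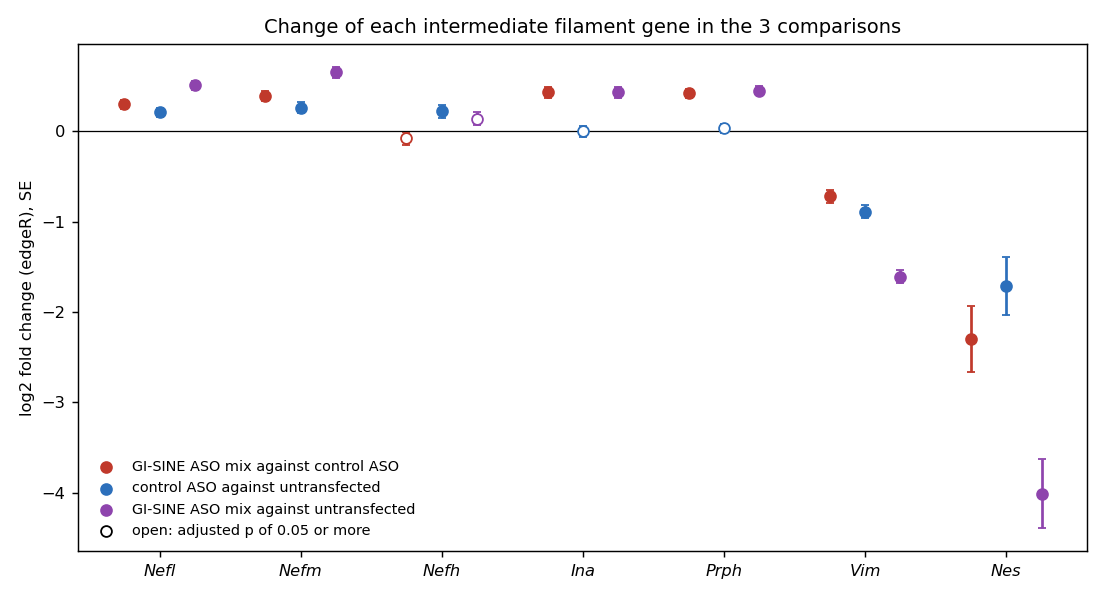
Log2 fold change with its SE (vertical axis) of each gene (horizontal axis) in the 3 comparisons, which share groups; filled points have an adjusted p under 0.05. Nes lies between -4.01 and -1.71 and Vim between -1.61 and -0.72, while the other 5 genes stay between -0.08 and 0.65.

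Levels of different genes were compared as CPM per kb of annotated exon. Prph was the most abundant in every group, at 935 ± 136, 695 ± 60.1 and 682 ± 74.9 CPM per kb in mix, control ASO and untransfected cultures (SD, n = 4 each). Nefl came next, at 514 ± 43.6, 418 ± 44.4 and 362 ± 51.4 CPM per kb in the same order, and no Prph library overlapped Nefl within a group. Vim came after Nefl in untransfected cultures, at 129 ± 16.1 CPM per kb, but below Nefm and Nefh with the mix (42.9 ± 10.3) and with the control ASO (70.1 ± 12.6).

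Nefh and Nefm lay close together. Nefm had 108 ± 13.7 and Nefh 84.8 ± 5.12 CPM per kb with the mix, where their ranges were separate, while with the control ASO (82.3 ± 8.93 and 89.9 ± 10.1) and without transfection (69.0 ± 9.49 and 77.6 ± 10.4) they overlapped. Ina and Nes closed the list: Ina had 17.6 ± 0.911, 13.1 ± 1.12 and 13.1 ± 0.675 CPM per kb in mix, control ASO and untransfected cultures, and Nes had 2.19 ± 1.81, 10 ± 4.40 and 30.7 ± 7.10. With the control ASO, Vim overlapped Nefm and Nes overlapped Ina. With the longest annotated transcript as length in place of the union of exons, Nefm was at 170, 129 and 108 and Vim at 69.5, 114 and 209 CPM per kb in mix, control ASO and untransfected cultures. Nefm then stood above Nefh in all groups, and Vim stood above Nefh with the control ASO.

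**Figure D3:**
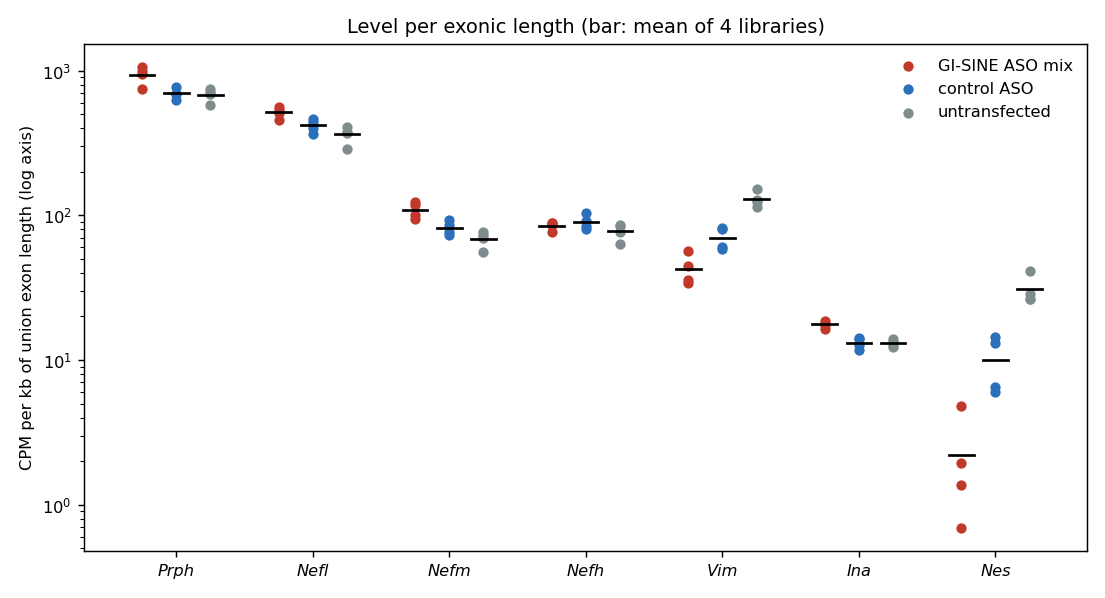
CPM per kb of union exon length (vertical log axis) of each gene in mix, control ASO and untransfected libraries (points) with the mean of 4 (bar). Prph and Nefl lead in every group, and the order of Vim, Ina and Nes below them changes between groups.

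Neurofilament subunits assemble in set proportions, so their mRNA ratios within a library were compared too; a ratio does not depend on how libraries are scaled. Per kb, Nefh stood to Nefl as 0.155, 0.152, 0.164 and 0.193 in the mix libraries of mice 1 to 4, against 0.223, 0.206, 0.210 and 0.221 with the control ASO and 0.208, 0.208, 0.225 and 0.218 in untransfected cultures. All 4 mix libraries lay below the other 8, and mouse 4 was the nearest to them. The log2 ratio was lower with the mix than with the control ASO by 0.38 ± 0.14 (SD over 4 mice), and lower in all 4. An exact two-sided sign-flip test over the mice gave p = 0.125, which is the smallest p that 4 mice allow, and an adjusted p of 0.188 over the 21 ratio tests. Against untransfected cultures the mix was lower by 0.38 ± 0.13 (exact p = 0.125), while control ASO and untransfected cultures differed by 0.00 ± 0.08 (exact p = 0.875).

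Nefh relative to Nefm gave 0.704, 0.774, 0.751 and 0.936 with the mix, against 1.11, 1.06, 1.1 and 1.1 with the control ASO and 1.11, 1.1, 1.16 and 1.14 without transfection. The heavy chain mRNA thus lay below the medium chain mRNA in each mix library and above it in the other 8, an order that rests on union exon lengths. Nefm relative to Nefl averaged 0.210 ± 0.0110 with the mix, 0.197 ± 0.00524 with the control ASO and 0.191 ± 0.00248 without transfection (SD, n = 4 each). It was higher with the mix than with the control ASO in all 4 mice (log2 difference 0.09 ± 0.08, SD; exact p = 0.125).

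Prph relative to Nefl averaged 1.81 ± 0.173, 1.67 ± 0.193 and 1.89 ± 0.0719 in mix, control ASO and untransfected cultures (SD, n = 4 each), with differences in both directions among mice for the mix against the control ASO (exact p = 0.375). Vim relative to Nefl was 0.0645, 0.0881, 0.0638 and 0.124 with the mix, against 0.126, 0.181, 0.150 and 0.224 with the control ASO and 0.301, 0.344, 0.301 and 0.524 without transfection. In each mouse the mix was lowest and the untransfected culture highest, and mouse 4 had the highest value in every group. Nes relative to Vim averaged 0.0467 ± 0.0274 with the mix, 0.138 ± 0.0379 with the control ASO and 0.236 ± 0.0265 without transfection, so Nes was lower relative to Vim as well (log2 difference -1.71 ± 0.58 for the mix against the control ASO, SD over 4 mice; exact p = 0.125).

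**Figure D4:**
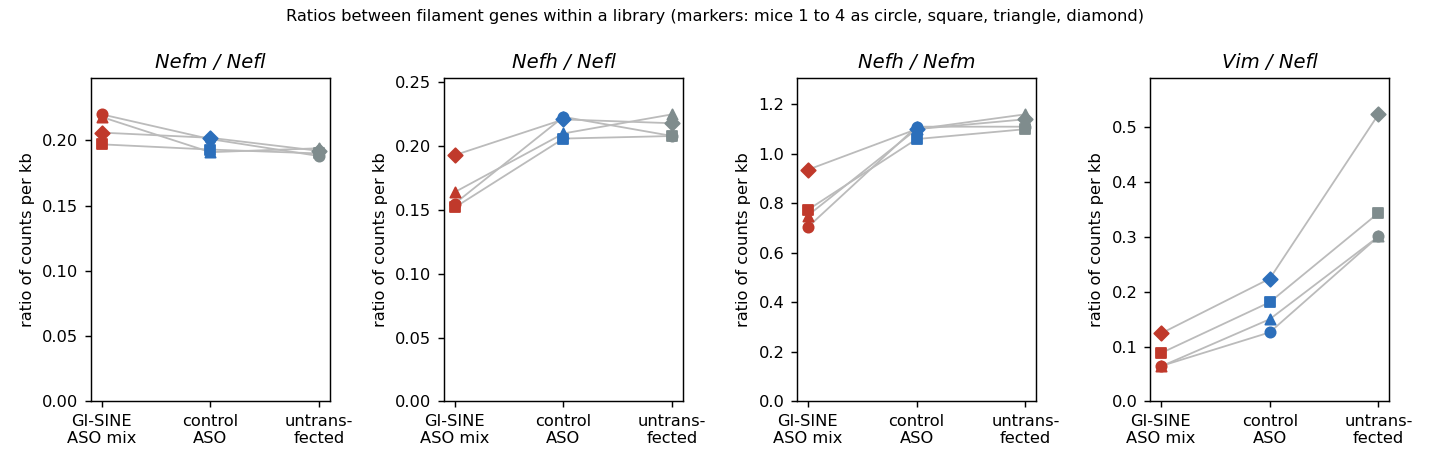
Ratio of counts per kb between pairs of filament genes within each library (vertical axes, from 0), in mix, control ASO and untransfected cultures, with grey lines joining the libraries of a mouse. Nefh to Nefl lies at 0.152 to 0.193 in the mix libraries and at 0.206 to 0.225 in the other 8.

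Vim and Nes moved beside markers of non-neuronal cells. For the mix against the control ASO, 28.8% of all tested genes were lower and 27.3% higher. For the control ASO against untransfected cultures, 13.7% were lower and 10.5% higher. Summed over 10 fibroblast genes, markers came to 51.3 to 79.2 CPM with the mix, against 94.4 to 171 CPM with the control ASO and 720 to 918 CPM without transfection, and none of the 10 was at 0 in a group. In the mix against the control ASO, 6 of these 10 genes were lower and none higher (median log2 fold change -1.03, against -0.03 over all genes tested), and in the control ASO against untransfected cultures 8 were lower and none higher (median -2.49, against 0.03). Fbn1, a fibrillin of the matrix, was at -0.96 ± 0.11 for the mix against the control ASO and at -2.82 ± 0.09 for the control ASO against untransfected cultures (SE).

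The Schwann cell list held 12 genes. The mix had 6 of them lower and 3 higher than the control ASO. With the control ASO, 8 were lower and none higher than without transfection. Over all tested genes, 28.8% were lower and 27.3% higher in the former comparison, and 13.7% lower and 10.5% higher in the latter. Erbb3, a neuregulin receptor, was at -3.59 ± 0.19 and -1.0 ± 0.13 in these comparisons (SE). The summed level of the list was held mainly by Ncam1, Pmp22 and Ngfr, which neurons also express (782 ± 111, 588 ± 71.9 and 569 ± 88.4 CPM with the mix against 832 ± 142, 433 ± 32.4 and 282 ± 30.2 CPM with the control ASO). That sum was 1783 to 2344 CPM with the mix, 1559 to 1859 CPM with the control ASO and 2112 to 2138 CPM without transfection. Of 8 satellite glia genes, 4 were lower in each of the 2 comparisons, and 1 was higher with the mix. Of 7 mural cell genes tested, the mix had 3 lower and 1 higher than the control ASO, and the control ASO had 4 lower than untransfected cultures; Cspg4 is among them. Endothelial genes were lower in 3 of 8 with the mix than with the control ASO, and macrophage genes higher in 2 of 7, shares near the 28.8% lower and 27.3% higher of all tested genes. Proliferation genes were lower in 8 of 9 with the control ASO than without transfection, and lower in 1 and higher in 1 of 9 with the mix than with the control ASO; they summed to 6.70 to 8.21, 5.94 to 10.1 and 26.6 to 43.8 CPM in mix, control ASO and untransfected cultures. The part of these cell types in the falls of Vim and Nes was not tested.

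**Figure D5:**
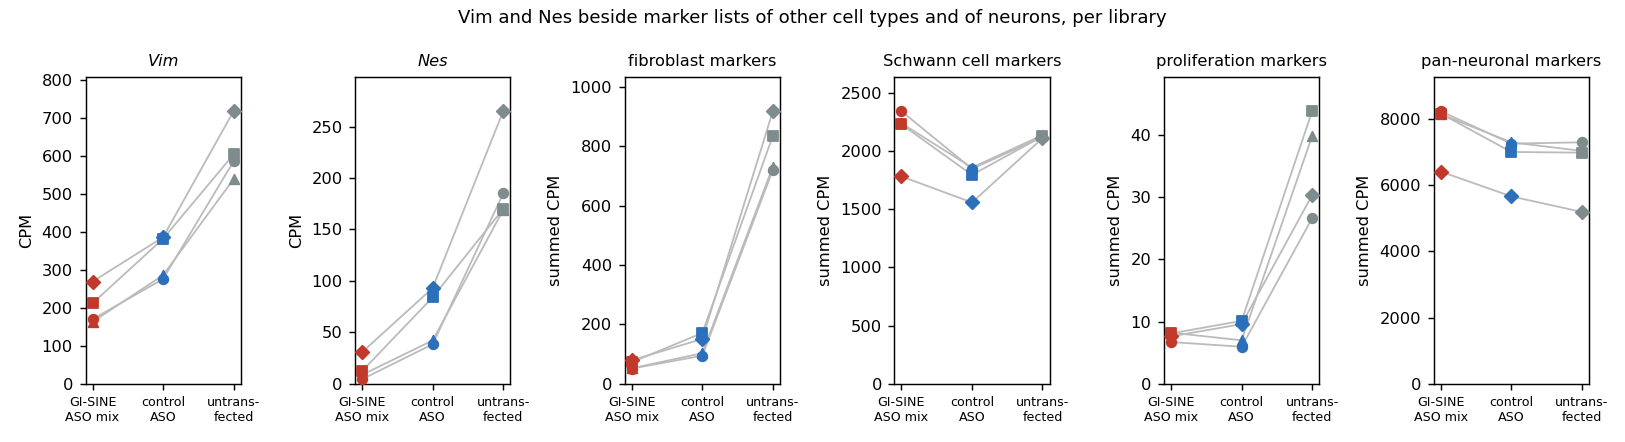
CPM of Vim and Nes and summed CPM of 4 marker lists (vertical axes, from 0) in mix, control ASO and untransfected libraries, with grey lines joining the libraries of a mouse. Fibroblast markers sum to 51.3 to 79.2 CPM with the mix and 720 to 918 CPM without transfection. Pan-neuronal markers sum to 5197 to 8243 CPM and are higher with the mix than with the control ASO in each mouse.

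With the mix against the control ASO, pan-neuronal markers were higher more often, and lower less often, than all tested genes. Of 13, 6 were higher and 2 lower with the mix than with the control ASO (median 0.07), beside 27.3% higher and 28.8% lower over all genes, with Uchl1, a neuronal ubiquitin hydrolase, at 0.44 ± 0.04 and Map2, a dendritic microtubule protein, at -0.68 ± 0.08 (SE). With the control ASO against untransfected cultures, 1 of the 13 was higher and none lower. Nociceptor genes were higher in 7 of 10 and lower in none with the mix (median 0.87), with Trpv1, the capsaicin receptor, at 0.81 ± 0.10 (SE). Large-diameter sensory neuron genes were higher in 6 of 10 and lower in none (median 0.41), with the potassium channel modifier Kcns1 at 1.29 ± 0.13 and Pvalb, the calcium-binding protein of proprioceptors, at 0.70 ± 0.15. With the control ASO against untransfected cultures, 2 nociceptor genes were higher and 2 large-diameter genes lower. The shares over all tested genes were 10.5% higher and 13.7% lower there. The part of a changed neuronal share of the RNA in the rises of Nefl, Nefm, Ina and Prph was not tested.

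Among 16 other intermediate filament genes, 9 passed the filter, with 3 higher and 1 lower with the mix than with the control ASO (median -0.10), fewer calls than the 56.2% of all tested genes. Lmna, which encodes lamins A and C of the nuclear envelope, rose by 0.56 ± 0.06, to 380 ± 35.2 CPM with the mix against 258 ± 10.9 CPM with the control ASO. Synm, which encodes the vimentin partner synemin, rose by 0.20 ± 0.05 and Lmnb2, a B-type lamin, fell by 0.47 on the log2 scale (SE 0.10). Krt10 rose by 1.05 ± 0.31 from a low level (1.03 ± 0.357 CPM with the mix against 0.499 ± 0.0596 CPM with the control ASO). With the control ASO against untransfected cultures Lmna alone of the 9 was called, at -0.39 ± 0.06, beside 24.2% of all tested genes.

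Cytolinkers tie filaments to other cytoskeleton and to junctions. Of 6 tested, 1 was higher and 3 lower with the mix than with the control ASO (median -0.37). Over all tested genes, 27.3% were higher and 28.8% lower in this comparison. Dst, whose loss causes sensory neuron degeneration in mice, had 2419 ± 232 CPM with the mix and 3042 ± 489 CPM with the control ASO (-0.32 ± 0.05), and Macf1 was at -0.41 ± 0.06. Plec (plectin) went the other way, at 0.26 ± 0.05 for the mix against the control ASO and -0.51 ± 0.05 for the control ASO against untransfected cultures.

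Kinases and phosphatases that act on neurofilament tails were higher in 8 of 16 and lower in 1 with the mix than with the control ASO (median 0.07). This share called equals the 56.2% of all tested genes. They were higher in 2 and lower in none with the control ASO than without transfection, where 24.2% of all tested genes were called. Mapk3 (ERK1) had 1008 ± 126 CPM with the mix and 646 ± 37.5 CPM with the control ASO (0.64 ± 0.05). Prkaca, a catalytic subunit of protein kinase A, was at 0.68 ± 0.05 and Cdk5r1, the p35 activator of Cdk5, at 0.75 ± 0.08. Cdk5r2, the other Cdk5 activator, was at 0.33 ± 0.06 for the control ASO against untransfected cultures.

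Motors that move filaments along axons were higher in 5 of 9 and lower in 2 with the mix (median 0.13). Over all tested genes, 27.3% were higher and 28.8% lower with the mix than with the control ASO. Dync1h1, the dynein heavy chain, fell by 0.52 on the log2 scale (SE 0.06), to 2450 ± 124 CPM with the mix against 3533 ± 502 CPM with the control ASO, while its adaptor Dctn1 rose by 0.34 ± 0.05 and the kinesin light chain Klc2 by 0.40 ± 0.06. Genes of filament turnover and of neurofilament mRNA binding were higher in 7 of 10 and lower in 2 (median 0.34). Hspb1, a small heat shock protein that binds filaments, was at 0.61 ± 0.06 and Stub1, a chaperone-linked ubiquitin ligase, at 0.45 ± 0.05.

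Tubulins and microtubule-associated proteins, the other main axonal polymer, were higher in 10 of 16 and lower in 2 with the mix than with the control ASO (median 0.22). They were higher in 2 and lower in 6 with the control ASO than without transfection (median -0.02). The shares over all tested genes were 27.3% higher and 28.8% lower in the former comparison, and 10.5% higher and 13.7% lower in the latter. Tubb6 was at 0.68 ± 0.07 and -1.05 ± 0.07 in these comparisons and Tuba4a at 0.66 ± 0.07 and 0.47 ± 0.08 (SE).

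Genes with the most similar pattern were ranked by Pearson's r of log2 CPM over the 12 libraries, which share 3 groups and 4 mice, among 11882 genes. Nefl and Nefm were each other's second closest gene (r = 0.986), and Endod1 was the closest to both (r = 0.990 and 0.988), followed by Cds1, an enzyme of phospholipid synthesis (r = 0.971 and 0.983). Nefh was most like Acsl6, an acyl-CoA synthetase (r = 0.942), and its similar genes also held the sodium channel gene Scn9a (r = 0.900). Its r was 0.636 with Nefl and 0.599 with Nefm.

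The nearest genes to Ina were Nacc2 (r = 0.968), Limd2 (r = 0.954) and Jph4, a neuronal junctophilin (r = 0.953), and those to Prph were Zcchc18 (r = 0.989), Fam189b (r = 0.986) and the GTPase gene Arf3 (r = 0.985). Vim was closest to Nid1, a basement membrane protein (r = 0.996), the small heat shock protein Cryab (r = 0.993) and Rhbdf1 (r = 0.993). Nes was closest to Cspg4, the NG2 proteoglycan, Sox10, the transcription factor of the Schwann cell lineage, and Zcchc24 (r = 0.996 each), and its r with Vim was 0.977. Sox10 had 3.16 ± 2.50 CPM with the mix, 21.3 ± 9.62 with the control ASO and 88.0 ± 21.8 without transfection (SD, n = 4 each).

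Promoter windows (250 bases before to 50 after the RefSeq start, GRCm38.p6) were matched for Ina, Prph, Vim and Nes, 4 of the 7 genes. Since Ina and Prph rose and Vim and Nes fell with the mix, the last 100 bases before each start are shown, all on the plus strand and 5′ to 3′, with TATAAA and GGGCGG (or its reverse complement) in capitals.
Ina, chr19:47014581-47014680: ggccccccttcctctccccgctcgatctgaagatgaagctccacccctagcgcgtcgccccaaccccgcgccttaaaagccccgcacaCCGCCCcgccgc
Prph, chr15:99055074-99055173: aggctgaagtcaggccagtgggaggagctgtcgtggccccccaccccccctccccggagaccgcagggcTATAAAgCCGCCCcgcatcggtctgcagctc
Vim, chr2:13574211-13574310: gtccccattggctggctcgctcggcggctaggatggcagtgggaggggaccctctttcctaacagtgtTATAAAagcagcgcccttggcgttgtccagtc
Nes, chr3:87970993-87971092: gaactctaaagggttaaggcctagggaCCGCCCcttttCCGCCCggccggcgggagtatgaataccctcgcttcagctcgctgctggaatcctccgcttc
TATAAA, searched on both strands, began 31 bases before the start in Prph and 32 bases before it in Vim, and was in neither other window; 13.6% of 32851 windows of this length held it. GGGCGG occurred in the windows of Ina, Prph and Nes, beside 35.7% of all windows, and TGANTCA, the AP-1 motif, in none of the 4, beside 7.81%. Prph, which rose with the mix, and Vim, which fell, both held TATAAA. A link between these motifs and the changes was not tested.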

How the data were processed

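The authors deposited unnormalised read counts for each Ensembl gene in 12 libraries. Per the labels' protocols, RNeasy Mini columns were used for RNA, which was sequenced from TruSeq Stranded libraries as paired 150-base reads. The submitters' processing notes name GRCm38 and mm10 as builds, and bcl2fastq 2.17, STAR and HTSeq as tools. Strand setting and annotation release: not given in the sources used here. Symbols, coordinates and exon lengths came from GENCODE M21 (GRCm38), which matched 48435 of 48795 IDs; the other 360 IDs held at most 0.0308% of a library's counts and stayed in the tests.

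Low counts were removed with edgeR's group filter, scaling was TMM, and group plus mouse were fitted to all 12 libraries by robust quasi-likelihood (edgeR 4.0.16, R 4.3.3). Two-sided p values were adjusted by Benjamini-Hochberg over 16831 genes. The SE of an edgeR fold change was derived from the test, as the absolute log2 fold change over the square root of its F statistic. Mouse is in the model because the series design ties each number to 1 mouse; deviations of same-numbered libraries from their group means correlated at 0.138 to 0.557. No 2 libraries of a group were copies of each other. The test was checked on simulated data that held no differences between mice and few changed genes. That check covers neither the pairing by mouse nor changes as common as those here. Ratios within a library used an exact sign-flip test over mice.

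The 7 genes and all lists were chosen with earlier results of these data known. The text names the 7 genes, up to 4 genes of each list with the smallest adjusted p, and the 3 genes most similar to each member (mean log2 CPM of at least 1, no clone or predicted-gene symbols). It also names Ncam1, for its part in the summed Schwann cell level, and Nt5c2, for its overlap with Ina. A few genes it selects are not reported here. Alternatives used DESeq2 1.42.0, limma 3.58.1 and other filters, scalings and subsets of libraries.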

Additional observations from a re-analysis of the deposited data

Results flagged for a closer look

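In 42 sets of 4 libraries (7 genes and 7 ratios in 3 groups), the sample farthest from its nearest neighbour was tested with Dixon's rule, which flags about 1 set in 20 by chance; 2 sets were flagged. Nefh in the GI-SINE ASO mix group had 308 CPM in mouse 2 against 345, 351 and 351 CPM in mice 1, 3 and 4, a gap of 0.853 of the range of the group. Nes in the untransfected group had 265 CPM in mouse 4 against 185, 170 and 169 CPM in mice 1, 2 and 3, a gap of 0.835 of the range. Mouse 4 also had the highest untransfected value of Vim (718 CPM) and the lowest of Nefl (977 CPM), Nefm (320 CPM), Nefh (252 CPM) and Prph (1152 CPM).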

How the results depend on the processing

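Each of the 7 genes was refitted under 14 alternatives in the 3 comparisons. For the mix against the control ASO and against untransfected cultures, the calls of Nefl, Nefm, Ina, Prph, Vim and Nes kept their direction and their side of the threshold in all 14, and the Nefh call changed only without mouse 4, against the control ASO. With a mouse left out, Nefh was at -0.14 to -0.02 against the control ASO and at 0.01 to 0.18 against untransfected cultures. For the control ASO against untransfected cultures, leaving mouse out as a replicate block gave 2391 genes and 1 of the 7 members (Vim) in place of 4081 and 5; Nefl (0.21), Nefm (0.25), Nefh (0.21) and Nes (-1.62) then lost their calls. Nefh also lost its call with the stricter filter (0.21), without the 3 most abundant loci (0.20) and after removal of length and GC trends (0.21). Those 3 loci held 15.7% to 19.5% of the counts of a library. Ina and Prph, which were not called, changed sign: Ina was at 0.00 with DESeq2 size factors, the DESeq2 Wald test and limma-voom, -0.01 with no filter and with the stricter filter, and -0.02 without the 3 loci, with the trend removed and with only the groups compared; Prph was at -0.08 with the trend removed. With each mouse left out, this comparison gave 2540 to 3946 genes, Nefh 0.16 to 0.28, Nes -1.96 to -1.50, Ina -0.05 to 0.04 and Prph -0.02 to 0.08; the Nefh to Nefl log2 ratio gave -0.03 to 0.04, and the Prph to Nefl ratio of mix against untransfected cultures -0.11 to 0.01. The cause of these changes was not tested. Scaled by library size only, the median of all genes moved by -0.12 for the mix against the control ASO and 34.0% of called genes were higher in place of 48.7%; for the control ASO against untransfected cultures 55.4%, and with the trend removed 55.7%, were higher in place of 43.5%. With the longest transcript as length, Nefm was at 170, 129 and 108 and Vim at 69.5, 114 and 209 CPM per kb in mix, control ASO and untransfected cultures.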
